A study of Bos taurus with 56 samples.

Results

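Kruppel-like factors (KLF) are transcription factors with zinc fingers that bind GC-rich and CACCC-type sequences near many promoters. Some members mainly activate transcription, others mainly repress it by recruiting co-repressors, and several are switched quickly by hormones, growth factors or metabolic state. In the reproductive tract the family is known above all for members that respond to progesterone or work beside its receptor. The present report describes 10 KLF genes, KLF2, KLF3, KLF4, KLF5, KLF6, KLF9, KLF10, KLF11, KLF13 and KLF15, in the epithelium of the bovine oviduct. They are the lines of the count table with these symbols. The 10 genes were chosen by a list that was drawn up with their levels over the study's conditions in view. Those levels contain the differences between sides, regions and metabolic groups, and earlier results of these data were known, so the choice was not independent of the contrasts. All 10 were found among the 31903 genes of the table, and all 10 had counts in every one of the 56 libraries. Because of how the list was chosen, the levels and the number of listed genes called, also beside the share of all genes, are a description. Each test is that of a fit across all genes, with p-values adjusted over all of them but not for the choice of the list.

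RNA was sequenced from scraped epithelial cells of 14 Holstein females. Nulliparous heifers (5 animals), non-lactating cows never milked after calving (5) and lactating cows (4) were compared, the cows primiparous and at about 60 days after calving. The labels give no ages. All animals, heifers included, had the same synchronized cycle, by a progesterone device, a prostaglandin analogue and a GnRH analogue, and were slaughtered on Day 3 after the induced estrus. From each animal the ampulla, the wider part of the oviduct near the ovary, and the isthmus, the narrow part that leads to the uterus, were taken on the side of the ovary with the corpus luteum (CL; ipsilateral) and on the other side (contralateral), which makes 12 conditions of 4 or 5 libraries. Animals are lettered below within their group.

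The sum of counts on genes ranged from 1901454 to 6836850 per library (median 4931502.5). Epithelial markers were present in every library. OVGP1, the oviduct-specific glycoprotein of secretory cells, had a median of 9418 CPM but varied widely, from 37.7 to 36154 CPM. FOXJ1, the regulator of ciliated cells, had a median of 278 CPM (150 to 441 CPM). Red blood cell markers summed to at most 0.907 CPM in any library. Libraries were matched to animals over 200 genes, picked in these same libraries as varying most between animal numbers relative to within them. That choice favours a match with the own number, so a match is no independent check of it. In 52 of 56 libraries the profile of these genes matched best the other libraries of the same animal. The other 4 libraries were all ipsilateral ampulla. A library of the non-lactating group carried the number of lactating cow B but matched non-lactating cow C best, and a library of the lactating group carried the number of non-lactating cow C but matched lactating cow B best. For heifer B the best match was non-lactating cow B, and the reverse held for that cow. The differences named below that rest on the ipsilateral ampulla are therefore also given without these 4 libraries, while the comparison of sides in the isthmus does not use them. In such bulk samples, fewer cells of a type and less RNA per cell cannot be told apart.

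Levels are read counts scaled to library size as CPM after TMM normalisation, and a level is compared only with that of the same gene in other libraries, because lengths of the transcripts were not used. KLF5, known from proliferating epithelia, had a median of 419 CPM over all libraries and ranged from 262 to 639 CPM. KLF3, a repressor that works with the co-repressor CtBP, had a median of 77.1 CPM (47.9 to 105 CPM). KLF6, an early-response factor, had a median of 73.6 CPM, KLF10 of 54.2 CPM and KLF11 of 27.3 CPM. KLF9 (median 20.4 CPM), KLF13 (16.0 CPM), KLF2 (14.1 CPM), KLF4 (13.8 CPM) and KLF15 (9.04 CPM) rested on fewer reads, down to 6 counts for KLF15 in a single library. Over the 12 conditions the highest mean exceeded the lowest 7.57-fold for KLF11, 3.68-fold for KLF2, 2.49-fold for KLF15 and 2.38-fold for KLF10, and less than that for the other 6 genes. When the 12 conditions were ordered by mean level, neighbours in the order overlapped in their single libraries in every case but one, which was the ipsilateral isthmus of heifers at the bottom of the order for KLF11 against the ipsilateral ampulla of heifers just above it. How often other genes of the table show such a gap was not counted, so it is a description only.

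The comparison of sides asks how the epithelium near the CL differs from that of the other oviduct in the same females. The main fits of sides and of regions had no term for the animal, so their p-values are unpaired. Fits with the animal as a block were run as an alternative. In the isthmus KLF11 and KLF10 were lower on the ipsilateral side in all 3 metabolic groups, and KLF2 was higher there in heifers and non-lactating cows. KLF10 and KLF11 are closely related genes, first described as early genes induced by TGF-beta (TIEG1 and TIEG2), and both encode repressors that bind Sin3. KLF2 is best known from endothelium under flow and from resting lymphocytes.

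KLF11 in the contralateral isthmus was measured at 18.6, 36.5, 56.9, 58.4 and 63.6 CPM in the 5 heifers. In their ipsilateral isthmus it was at 9.28, 10.3, 15.3, 16.1 and 16.2 CPM, so the sides did not overlap. The mean fell from 46.8 ± 18.8 to 13.4 ± 3.37 CPM (SD, n = 5 a side), a log2 fold change of -1.81 (SE 0.304, adjusted p = 0.00630, edgeR quasi-likelihood test with adjustment over all genes). In non-lactating cows the contralateral libraries were at 21.5, 45.6, 55.4, 87.1 and 111 CPM. The ipsilateral ones were at 12.5, 19.1, 20.6, 20.9 and 40.5 CPM, and here the lowest contralateral library lay below the highest ipsilateral one. The log2 fold change was -1.53 (SE 0.396, edgeR adjusted p = 0.0445). In lactating cows KLF11 was highest of all, at 86.0, 86.2, 114 and 120 CPM on the contralateral side. On the ipsilateral side the 4 cows had 20.7, 24.4, 32.5 and 46.5 CPM, without overlap, and the log2 fold change was -1.72 (SE 0.238, edgeR adjusted p = 0.0297). Each of the 14 animals had less KLF11 on its ipsilateral side, with log2 differences from -2.62 in heifer B to -0.20 in heifer C, and a median of -1.44.

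KLF10 followed the same order with smaller differences. Heifers had 59.2, 68.9, 70.1, 80.2 and 85.3 CPM in the contralateral isthmus. They had 26.1, 38.4, 38.5, 43.7 and 54.6 CPM in the ipsilateral isthmus, below all contralateral libraries (log2 fold change -0.87, SE 0.174, edgeR adjusted p = 0.0112). Non-lactating cows had 56.4, 64.4, 74.7, 80.8 and 113 CPM on the contralateral side. Their ipsilateral libraries were close together at 38.8, 45.8, 48.6, 48.8 and 53.9 CPM, again without overlap (log2 fold change -0.74, SE 0.172, edgeR adjusted p = 0.0290). Lactating cows had 83.4, 92.8, 93.7 and 114 CPM on the contralateral side. On the ipsilateral side they had 44.7, 53.2, 54.6 and 55.6 CPM (log2 fold change -0.88, SE 0.126, edgeR adjusted p = 0.0313). Over all 28 isthmus libraries, the highest ipsilateral library (55.6 CPM) was just below the lowest contralateral one (56.4 CPM). All 14 animals had less KLF10 on the ipsilateral side.

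KLF2 went the other way. Its contralateral isthmus levels in heifers were 14.5, 15.6, 16.9, 21.5 and 28.4 CPM. The ipsilateral levels were 21.2, 30.2, 32.4, 36.2 and 42.2 CPM, with overlap between the sides (log2 fold change 0.73, SE 0.214, edgeR adjusted p = 0.0488). In non-lactating cows the contralateral levels were 10.3, 12.4, 14.8, 17.3 and 20.5 CPM. The ipsilateral ones were 22.1, 22.5, 24.4, 32.5 and 37.2 CPM, all higher (log2 fold change 0.86, SE 0.217, edgeR adjusted p = 0.0421). In lactating cows KLF2 was at 9.58, 11.3, 15.0 and 17.4 CPM contralaterally. It was at 12.2, 18.5, 22.0 and 29.7 CPM ipsilaterally, which did not pass the test in this group alone (log2 fold change 0.63, SE 0.286, edgeR adjusted p = 0.413). KLF2 was higher on the ipsilateral side in 14 of 14 animals, by 0.30 to 1.40 on the log2 scale. Counts of animals for KLF11, KLF10 and KLF2 use the same values as the tests and add no separate evidence. They were not made for all genes.

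**Figure D1:**
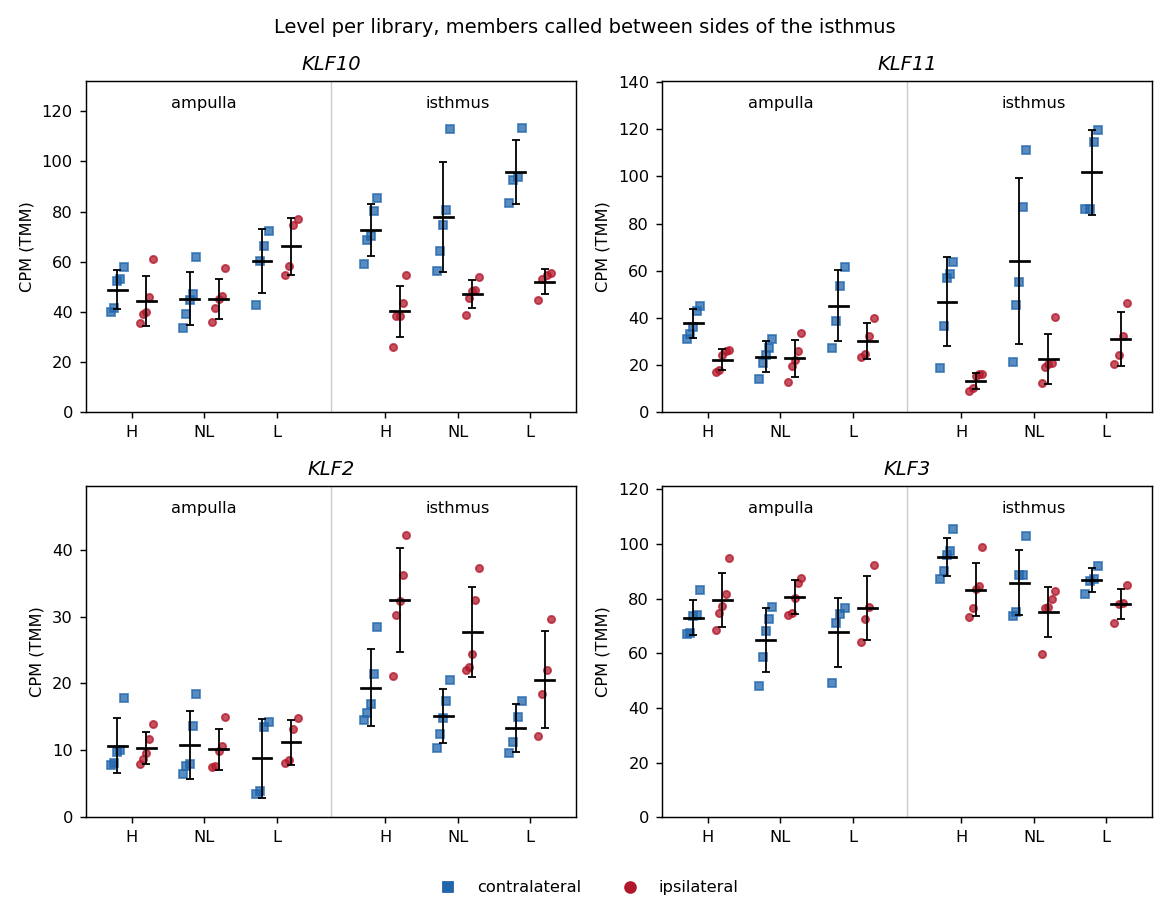
Levels of KLF10, KLF11, KLF2 and KLF3 in TMM-normalised CPM (linear axes from 0) by metabolic group (H, heifers; NL, non-lactating cows; L, lactating cows), region and side; points are libraries, lines and bars the mean ± SD of 4 or 5. In the isthmus the ipsilateral KLF10 points lie below all contralateral ones of their group, with highest and lowest library at 55.6 and 56.4 CPM over the groups, whereas in the ampulla the sides of KLF10 overlap.

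**Figure D2:**
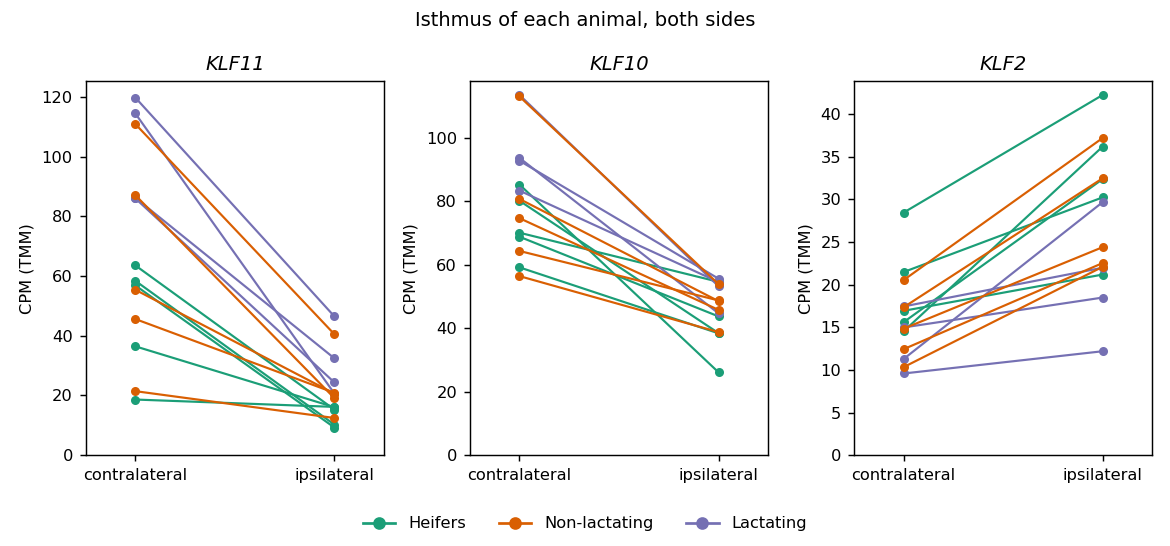
KLF11, KLF10 and KLF2 in the isthmus of each of the 14 animals, in TMM-normalised CPM (linear axes from 0), with a line from the contralateral to the ipsilateral library, coloured by metabolic group. All lines of KLF11 and KLF10 fall and all lines of KLF2 rise, the flattest of KLF11 being that of heifer C (18.6 to 16.2 CPM).

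Of the 10 KLF genes, 3 were called between sides of the isthmus in heifers, where 10% of all tested genes were called. In non-lactating cows 3 were called against 5.11% of all genes, and in lactating cows 2 against 0.187%. DESeq2 and the edgeR fit with the animal as a block also called 2 in lactating cows, against 2.62% and 2.32% of all genes. With all groups in one fit that kept the metabolic group as a term, 4 of 10 were called, 1 higher and 3 lower, against 29.3% of all genes (16.1% higher and 13.2% lower), and the median log2 fold change of the 10 was 0.00 as was that of all genes. In that fit KLF10 had a log2 fold change of -0.82 (SE 0.0959, edgeR adjusted p = 5.61e-07). KLF11 had -1.67 (SE 0.207, edgeR adjusted p = 1.22e-06) and KLF2 had 0.75 (SE 0.140, edgeR adjusted p = 0.000182). The fourth gene was KLF3, whose change was much smaller (-0.19, SE 0.0583, edgeR adjusted p = 0.0167). KLF3 was at 73.5 to 105 CPM (median 88.7) in the contralateral isthmus and at 59.6 to 98.7 CPM (median 78.0) in the ipsilateral one, with wide overlap, and 11 of 14 animals had less on the ipsilateral side. Its call was lost when no filter on low counts was applied (edgeR adjusted p = 0.0518). KLF13, a Sin3-binding relative of KLF9, was higher on the ipsilateral side in 10 of 14 animals (log2 fold change 0.29, SE 0.134, edgeR adjusted p = 0.105) and passed the test when the animal was kept as a block (edgeR adjusted p = 0.0433, in a fit that called 33.6% of all genes).

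Calls within a single metabolic group were often lost when 1 animal was left out. In heifers KLF11 was called whichever animal was left out, but KLF10 was lost without heifer A or heifer E and KLF2 without heifer A, B, C or E, although their log2 fold changes stayed between -1.03 and -0.68 and between 0.61 and 0.80. In non-lactating cows KLF10 was lost without cow A, C or D, KLF11 without cow A, B or C and KLF2 without any of the 5. In lactating cows KLF10 and KLF11 were both lost whichever cow was left out, with log2 fold changes of -0.96 to -0.80 and of -1.88 to -1.50. All 4 calls over the pooled groups held in each of the 14 exclusions.

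**Figure D3:**
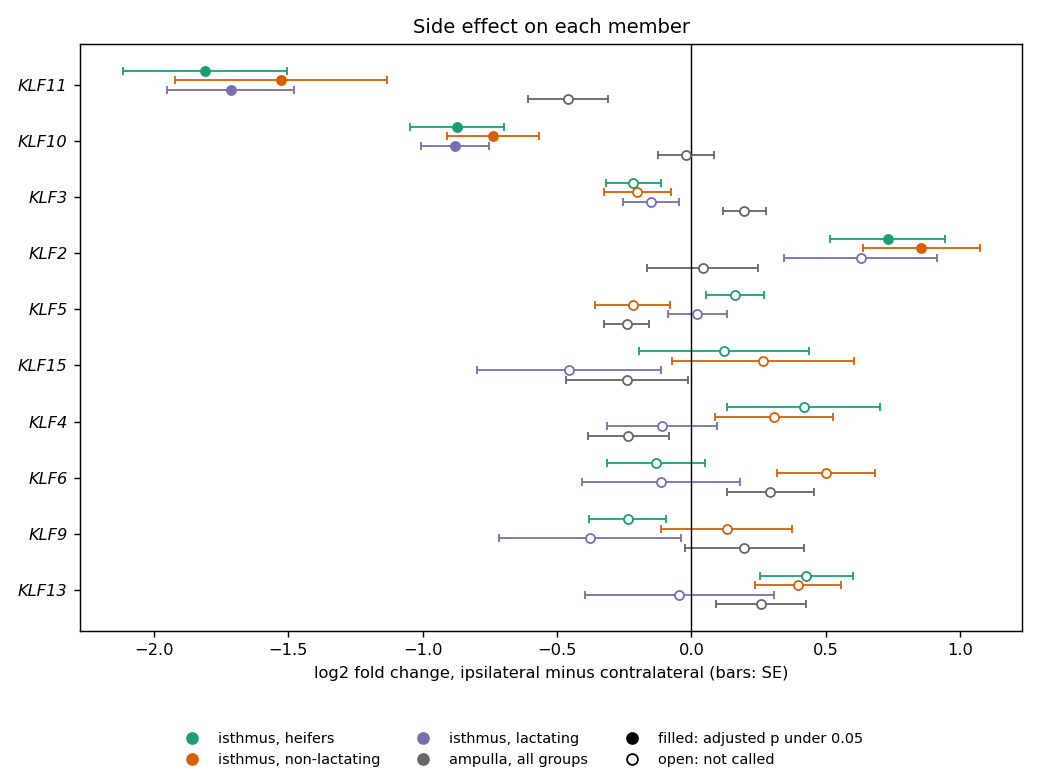
Log2 fold change of the 10 KLF genes between sides (ipsilateral minus contralateral) in the isthmus of each metabolic group and in the ampulla over all groups; bars are SE, and filled points passed an edgeR adjusted p under 0.05. KLF11 and KLF10 lie left of 0 and KLF2 right of 0 in the isthmus of all 3 groups, and no gene is filled in the ampulla.

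The other 6 KLF genes were not called between sides of the isthmus in any group. KLF5 had 477 ± 57.5 CPM contralaterally and 478 ± 73.8 CPM ipsilaterally (SD, n = 14 a side). KLF6 was higher ipsilaterally in all 5 non-lactating cows (log2 fold change 0.50, SE 0.183, edgeR adjusted p = 0.133), but in only 2 of 5 heifers and 2 of 4 lactating cows. KLF9, a progesterone-responsive gene that encodes a partner of the progesterone receptor, was at 21.2 ± 6.20 CPM contralaterally and 19.2 ± 4.49 CPM ipsilaterally. KLF15, a glucocorticoid-responsive regulator of amino acid and glucose use, was at 12 ± 5.61 and 12.1 ± 3.98 CPM. KLF4, a factor of epithelial differentiation, was at 13.3 ± 3.15 and 15.6 ± 4.61 CPM.

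In the ampulla none of the 10 KLF genes was called between sides. By edgeR, 0 of 10 passed in heifers (0% of all genes), 0 of 10 in non-lactating cows (0.0947%) and 0 of 10 in lactating cows (0%). With all groups together 0 of 10 passed against 5.41% of all genes. An unadjusted edgeR p under 0.05 was found for 2 of the 10 in heifers, beside 1253 of 13626 tested genes. It was found for 3 in non-lactating cows (1523 of 13726 genes), 0 in lactating cows (594 of 13938) and 3 over all groups (2934 of 14553). DESeq2 called 1 in heifers (0.399% of all genes) and 2 over all groups (7.35%), and none in non-lactating (0.990%) or lactating cows (0.0636%). KLF11 was the gene closest to a call. In heifers it was at 31.1, 33.3, 36.3, 42.9 and 45.1 CPM in the contralateral ampulla. In the ipsilateral ampulla it was at 17.2, 18.2, 24.1, 25.9 and 26.4 CPM, without overlap (log2 fold change -0.75, SE 0.177, edgeR adjusted p = 0.305, DESeq2 adjusted p = 0.0351), and without the mismatched heifer library the log2 fold change was -0.67 (edgeR adjusted p = 0.519). In non-lactating cows the means were 23.6 ± 6.47 and 22.9 ± 7.69 CPM (SD, n = 5). Over all groups the log2 fold change of KLF11 was -0.46 (SE 0.149, edgeR adjusted p = 0.0653, DESeq2 adjusted p = 0.0352), and without the 4 mismatched libraries it was -0.52 (edgeR adjusted p = 0.0816). It was called when non-lactating cow D or E was left out (the lower edgeR adjusted p being 0.0330). KLF5 was at 395 ± 62.4 CPM contralaterally and 335 ± 41.6 CPM ipsilaterally (log2 fold change -0.24, SE 0.0822, edgeR adjusted p = 0.0816, 0.0463 with the animal as a block, which called 7.64% of all genes, DESeq2 adjusted p = 0.0445). Without the 4 mismatched libraries its edgeR adjusted p was 0.180. KLF10 in the ampulla was at 51.0 ± 11.5 CPM contralaterally and 51.0 ± 13.4 CPM ipsilaterally. KLF6 in non-lactating cows had a log2 fold change of 0.79 (SE 0.238, edgeR adjusted p = 0.238), and of 0.85 (adjusted p = 0.0457) with the animal number as a block, in a fit that called 1.08% of all genes and where 2 numbers had a single library. Without the mismatched libraries of that group it was 0.80 (edgeR adjusted p = 0.223).

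The difference between the side effects of the regions was tested over all 56 libraries, in which each animal gives 4, without a term for the animal. It passed for 3 of the 10 KLF genes, all with a more negative side effect in the isthmus, against 6.66% of all genes (2.11% in that direction). The difference was -0.79 on the log2 scale for KLF10 (SE 0.144, edgeR adjusted p = 0.000340), -1.16 for KLF11 (SE 0.277, edgeR adjusted p = 0.00649) and -0.38 for KLF3 (SE 0.0953, edgeR adjusted p = 0.00890). For KLF3 the 2 side effects had opposite signs, since its level in the ampulla was 68.6 ± 10.2 CPM contralaterally and 78.9 ± 8.71 CPM ipsilaterally. KLF2 missed the threshold (0.70, SE 0.252, edgeR adjusted p = 0.0796). Without the 4 mismatched libraries the same 3 genes were called (edgeR adjusted p = 0.00149 for KLF10, 0.0189 for KLF11 and 0.0176 for KLF3). Side effects were also compared between metabolic groups. There 0 of 10 passed in the isthmus and 0 of 10 in the ampulla by edgeR and by DESeq2, with 0% of all genes called in both regions. None of the 10 had an unadjusted edgeR p under 0.05, beside 308 of 15031 genes in the isthmus and 176 of 15270 in the ampulla.

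Between the regions, KLF2 and KLF5 were higher in the isthmus on both sides, KLF15 on the ipsilateral side, and KLF3, KLF10 and KLF11 on the contralateral side. Ipsilaterally 3 of 10 were called, all higher in the isthmus, against 51.3% of all genes (24.8% higher). Contralaterally 5 of 10 were called, again all higher in the isthmus, against 44.6% (22.0% higher). The median log2 fold change of the 10 was -0.01 and 0.32, beside -0.02 and -0.01 for all genes. Ipsilateral KLF2 ranged from 7.51 to 15.0 CPM (median 9.75) in the ampulla and from 12.2 to 42.2 CPM (median 27.0) in the isthmus, a log2 fold change of 1.32 (SE 0.151, edgeR adjusted p = 2.09e-08). Contralaterally its log2 fold change was 0.64 (SE 0.205, edgeR adjusted p = 0.0115). KLF5 was higher in the isthmus by 0.48 ipsilaterally (SE 0.0732, edgeR adjusted p = 2.64e-06) and by 0.27 contralaterally (SE 0.0813, edgeR adjusted p = 0.00751). KLF15 was higher by 0.75 ipsilaterally (SE 0.185, edgeR adjusted p = 0.00108). Contralaterally its difference was 0.52 (SE 0.240, edgeR adjusted p = 0.0757, and 0.0217 with the animal as a block, which called 46.3% of all genes).

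For the other 3 genes the call between regions was on the contralateral side. KLF10 had 51.0 ± 11.5 CPM in the contralateral ampulla and 81.2 ± 17.7 CPM in the contralateral isthmus (log2 fold change 0.66, SE 0.105, edgeR adjusted p = 5.18e-06). On the ipsilateral side it had 51.0 ± 13.4 and 46.1 ± 8.49 CPM (log2 fold change -0.16, SE 0.1, edgeR adjusted p = 0.195). KLF11 had 34.8 ± 12.8 CPM in the contralateral ampulla and 68.6 ± 33.0 CPM in the contralateral isthmus (log2 fold change 0.95, SE 0.210, edgeR adjusted p = 0.000410). Ipsilaterally it had 24.8 ± 7.11 and 21.8 ± 11 CPM (log2 fold change -0.28, SE 0.170, edgeR adjusted p = 0.181). KLF3 had a log2 fold change of 0.38 contralaterally (SE 0.0746, edgeR adjusted p = 0.000108) and -0.03 ipsilaterally. Without the 4 mismatched libraries KLF2, KLF5 and KLF15 were again the genes called on the ipsilateral side, with log2 fold changes of 1.28, 0.51 and 0.82.

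**Figure D4:**
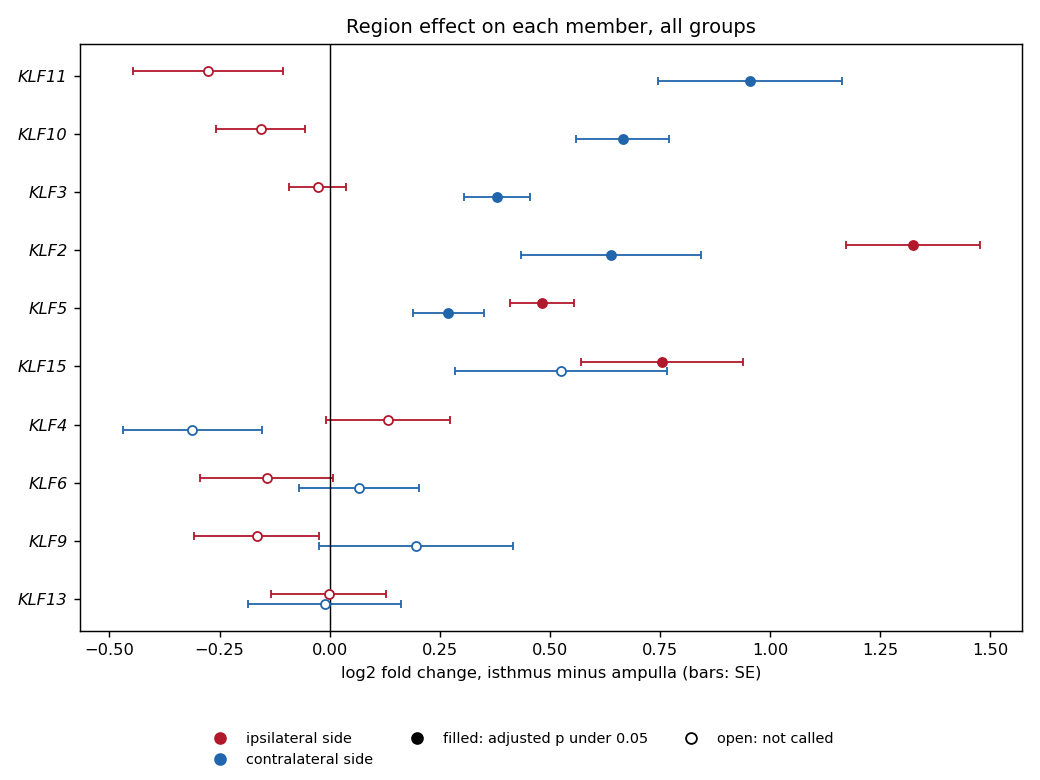
Log2 fold change of the 10 KLF genes between regions (isthmus minus ampulla) on the ipsilateral and the contralateral side, all metabolic groups in one fit; bars are SE, and filled points passed an edgeR adjusted p under 0.05. KLF3, KLF10 and KLF11 are filled only contralaterally (0.38, 0.66 and 0.95), KLF2 and KLF5 on both sides and KLF15 only ipsilaterally.

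Markers of cell types differed between regions and, for some of them, between sides. Whether the cell makeup of the scrapes differed, and its part in these results, was not tested. In the isthmus the summed level of 10 ciliated cell markers was 3003 to 4666 CPM ipsilaterally and 3531 to 5118 CPM contralaterally, and 2 of the 10 were called between sides (29.3% of all genes were), CAPS higher and DNAH5 lower ipsilaterally. In the ampulla it was 4563 to 7054 and 5570 to 7527 CPM, and 9 of 10 ciliated markers were lower in the isthmus on the ipsilateral side (26.5% of all genes were) and 10 of 10 on the contralateral side (22.5%). Of 7 epithelial markers, KRT8, KRT18, KRT7 and CDH1 were higher and CLDN4 was lower in the ipsilateral isthmus, and of 6 secretory markers LTF and WFDC2 were higher. The secretory markers summed to 3596 to 17320 CPM in the ipsilateral isthmus and 642 to 19547 CPM in the contralateral isthmus. In the ampulla they summed to 3180 to 15347 CPM ipsilaterally and 3521 to 38245 CPM contralaterally. The 7 endothelial markers in the table, given because KLF2 is abundant in endothelium, summed to 11.9 to 55.2 CPM in the ipsilateral isthmus, 17.1 to 123 CPM in the contralateral isthmus and 83.4 to 388 CPM in the ampulla, KDR having the highest median (74.3 CPM over all libraries). PECAM1, KDR and TEK were called lower in the isthmus on both sides. Between the sides of the isthmus KDR was the one called of 4 tested, lower ipsilaterally (log2 fold change -1.28, edgeR adjusted p = 0.00468), while the summed levels overlapped. CLDN5 was at 0 in 55 libraries and ESAM in 45. Of 6 smooth muscle markers 3 were tested. MYH11 was higher in the isthmus on both sides (log2 fold change 5.13 ipsilaterally and 4.89 contralaterally), with a median of 3.13 CPM over all libraries and 0 in 5. Within the isthmus MYH11 was higher ipsilaterally (log2 fold change 0.69, edgeR adjusted p = 0.0480). ACTA2, in contrast, was lower in the isthmus ipsilaterally (-0.82, edgeR adjusted p = 0.000765). DES, with a median of 1.76 CPM, was lower there contralaterally (-1.35, edgeR adjusted p = 0.00290). The list had a summed level of 10.3 to 93.8 CPM in the isthmus and 7.33 to 30.0 CPM in the ampulla, while TAGLN and CNN1 were at 0 in 45 and 44 libraries. Of the lymphocyte, macrophage and fibroblast markers none was called between the sides of the isthmus, where they summed to at most 169, 177 and 359 CPM in a library. Between regions LUM was higher in the isthmus on both sides (log2 fold change 6.32 ipsilaterally and 6.79 contralaterally) and DCN contralaterally (3.71). Both were near the floor, LUM at 0 in 27 libraries (median 0.218 CPM) and DCN at 0 in 24 (median 0.515 CPM). COL1A2 (-0.82 and -0.59) and CD247 (-0.72 and -1.12) were lower in the isthmus on both sides and MRC1 ipsilaterally (-0.70).

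Metabolic groups were compared on the ipsilateral side, the question being whether lactation or calving changed the epithelium. By edgeR none of the 10 KLF genes was called in any of the 6 comparisons, in which 0% of all genes were called, apart from 0.00730% in the isthmus of non-lactating cows against heifers. Over these 60 tests of KLF genes, 8 had an unadjusted edgeR p under 0.05. In the isthmus these were 3 of 10 for lactating cows against heifers, beside 1446 of 13840 tested genes. They were 2 of 10 for non-lactating cows against heifers (1619 of 13703 genes) and 1 of 10 for lactating against non-lactating cows (881 of 14077). In the ampulla, in the same order, they were 1 (995 of 13918), 0 (497 of 13701) and 1 of 10 (502 of 14066). DESeq2 called 1 KLF gene over the 6 comparisons. Its shares of all genes, in that order, were 1.08, 1.74 and 0.111% in the isthmus and 0.121, 0 and 0% in the ampulla. The KLF gene called by DESeq2 was KLF11 in the isthmus of lactating cows against heifers. The 4 lactating cows (20.7 to 46.5 CPM) lay above the 5 heifers (9.28 to 16.2 CPM) without overlap, with a log2 fold change of 1.22 (SE 0.258, edgeR adjusted p = 0.244, DESeq2 adjusted p = 0.00564). In the same comparison the tested macrophage and lymphocyte markers had median log2 fold changes of 1.45 and 1.10, with none called, beside 0.01 for all genes, and their part in the KLF11 difference was not tested. KLF13 had the opposite order, at 9.34 to 16.6 CPM in lactating cows and 19.1 to 24.4 CPM in heifers (log2 fold change -0.72, SE 0.193, edgeR adjusted p = 0.293). Non-lactating cows had intermediate levels of both, at 22.7 ± 10.5 CPM for KLF11 and 18.7 ± 2.38 CPM for KLF13 (SD, n = 5). KLF10 in the ampulla was at 66.2 ± 11.3 CPM in lactating cows, 45.4 ± 8 CPM in non-lactating cows and 44.5 ± 10.1 CPM in heifers. Its log2 fold change was 0.58 against heifers (SE 0.175, edgeR adjusted p = 0.515) and 0.54 against non-lactating cows (SE 0.160, edgeR adjusted p = 0.998). Without the 4 mismatched libraries these were 0.78 (SE 0.164, edgeR adjusted p = 0.280) and 0.63 (SE 0.184, edgeR adjusted p = 0.998).

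The contralateral side was not tested between metabolic groups, and its levels are given as a description. KLF11 in the contralateral isthmus was at 102 ± 18.0 CPM in lactating cows, 64.1 ± 35.2 CPM in non-lactating cows and 46.8 ± 18.8 CPM in heifers. The lowest lactating cow (86.0 CPM) stood above the highest heifer (63.6 CPM), whereas the non-lactating cows spanned both. How many of all genes separate lactating cows from heifers in this way was not counted. KLF10 there was at 95.9 ± 12.7, 77.9 ± 21.8 and 72.7 ± 10.2 CPM. KLF6 in the contralateral ampulla was at 49.6 ± 11.8 CPM in non-lactating cows and at 82.0 ± 21.4 and 82.1 ± 27.7 CPM in heifers and lactating cows, with overlap of the groups.

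**Figure D5:**
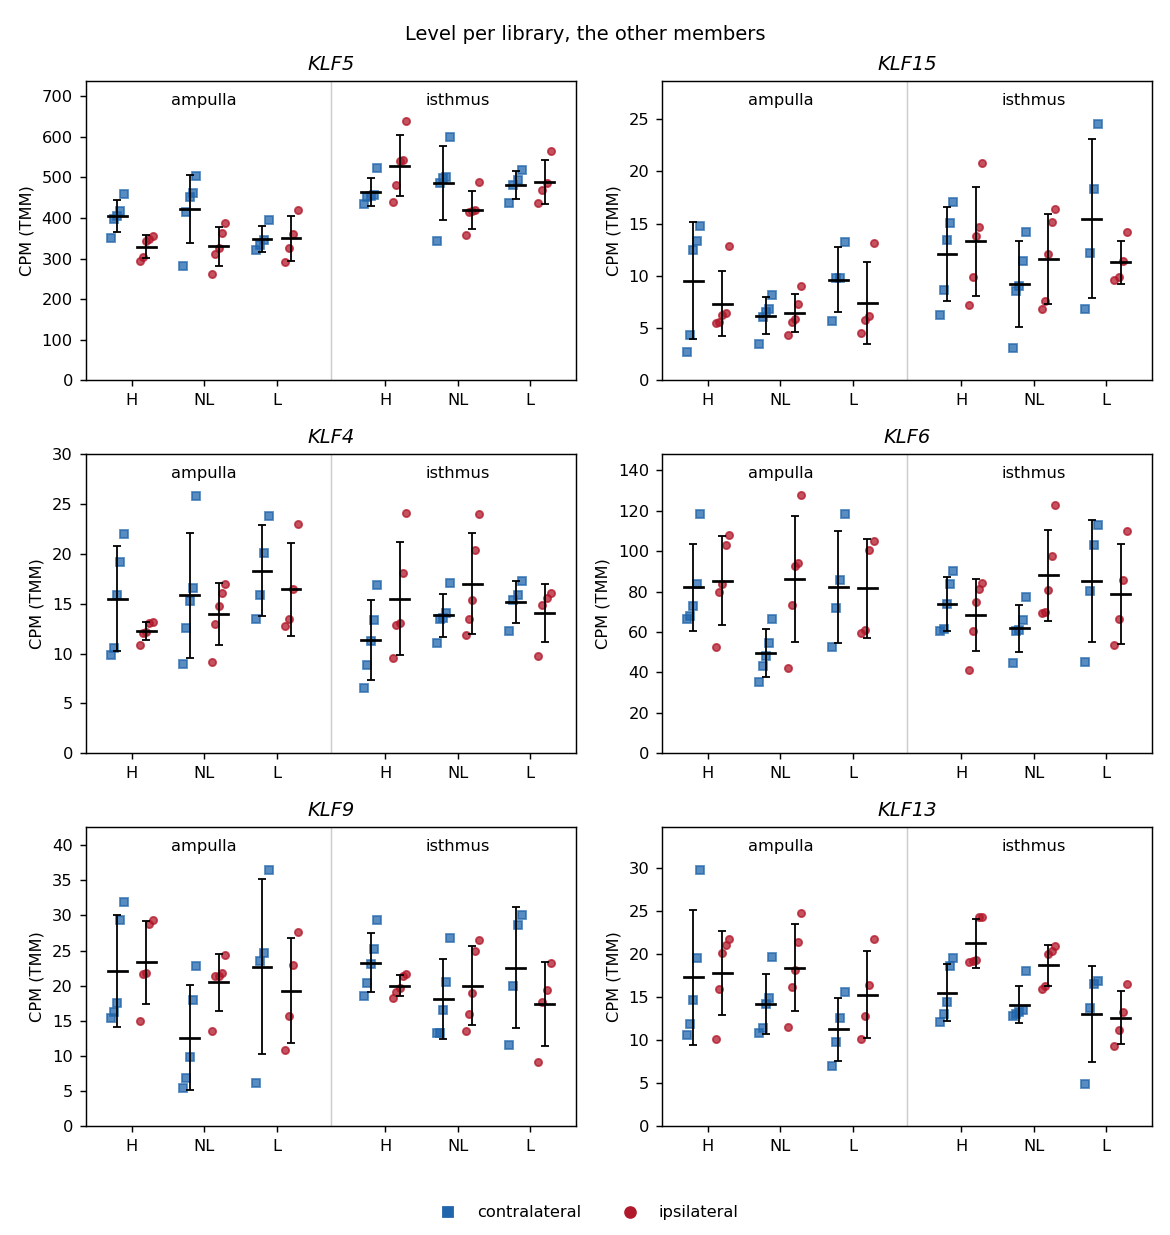
Levels of KLF5, KLF15, KLF4, KLF6, KLF9 and KLF13 in TMM-normalised CPM (linear axes from 0) by metabolic group (H, heifers; NL, non-lactating cows; L, lactating cows), region and side; points are libraries, lines and bars the mean ± SD of 4 or 5. KLF5 stands higher in the isthmus (ipsilateral median 475 CPM) than in the ampulla (335 CPM), and the sides overlap in the isthmus for all 6 genes.

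The rest of the KLF and SP family was read from a fixed list of 14 genes present in the table, while KLF8, KLF17 and KLF18 were not analysed here. KLF1 and KLF14 were at 0 in 39 and 43 libraries. KLF7, KLF12 and KLF16 were expressed in every library, with medians of 19.8, 7.72 and 10.4 CPM. None of these 3 was called between sides, with log2 fold changes in the isthmus of -0.18 for KLF7 (SE 0.126), -0.19 for KLF12 (SE 0.168) and -0.17 for KLF16 (SE 0.127). Between regions their calls were all lower in the isthmus. KLF12, a repressor, was lower in the isthmus on the ipsilateral (log2 fold change -0.74, SE 0.163, edgeR adjusted p = 0.000364) and the contralateral side (-0.67, SE 0.183, edgeR adjusted p = 0.00328). KLF7 was lower ipsilaterally (-0.49, SE 0.130, edgeR adjusted p = 0.00245) and KLF16 contralaterally (-0.45, SE 0.166, edgeR adjusted p = 0.0255). Of the related SP factors, SP3 and SP4 were lower in the ipsilateral than in the contralateral isthmus (log2 fold changes of -0.22, SE 0.0602, edgeR adjusted p = 0.00733 and of -0.32, SE 0.0889, edgeR adjusted p = 0.00816).

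Lists of genes of the inputs known to act on the family were read in the same fits, where 29.3% of all genes were called between the sides of the isthmus (16.1% higher and 13.2% lower ipsilaterally). Of 15 genes in the list of TGF-beta response, a pathway that induces KLF10 and KLF11, 12 were tested between the sides of the isthmus, where LTBP2, a protein of the extracellular matrix, was higher ipsilaterally and SMAD7, SKI and TGIF1, which restrain the pathway, were lower. The log2 fold changes were 1.28 for LTBP2 (SE 0.253, edgeR adjusted p = 0.000351), -0.93 for SMAD7 (SE 0.287, edgeR adjusted p = 0.0152) and -0.55 for TGIF1 (SE 0.0684, edgeR adjusted p = 1.27e-06), and the median of the list was -0.22 beside 0.00 for all genes. Of 14 genes of glucocorticoid and progesterone response, 4 were higher in the ipsilateral isthmus (CEBPD, DDIT4, HSD11B2 and MT2A) and 2 were lower (PGR and NR3C1, the receptors of progesterone and glucocorticoids), with a median of 0.08. HSD11B2, which inactivates cortisol, had a log2 fold change of 1.43 (SE 0.183, edgeR adjusted p = 2.00e-06), MT2A of 1.30 (SE 0.226, edgeR adjusted p = 8.96e-05) and PGR of -0.91 (SE 0.170, edgeR adjusted p = 0.000194). Of 17 tested immediate early genes, which like KLF6 and KLF10 answer quickly to stimuli, 2 were higher (ZFP36 and BTG2) and 5 were lower (EGR1, EGR3, IER3, MYC and CYR61), with a median of -0.13. EGR3 was near the floor, with a median of 0.789 CPM over all libraries and 0 in 9 of them. In the ampulla BTG2 and DDIT4 were called higher ipsilaterally, and no gene of the TGF-beta list was called.

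Finally, the profile of each KLF gene was compared with those of 9615 genes over the 56 libraries, as a description in which libraries of the same animal and region are not independent. KLF10 and KLF11 shared their most similar gene, TXNIP, a glucose-responsive inhibitor of thioredoxin (Pearson's r of log2 CPM 0.71 and 0.77). Within the family KLF10 and KLF11 were the most alike pair (r = 0.77), followed by KLF2 and KLF5 (0.57) and by KLF6 and KLF9 (0.55), and the least alike was KLF11 with KLF13 (-0.36). KLF11 was next most similar to SESN3, a sestrin (0.75), and KLF10 to NDE1 (0.68). KLF2 was most similar to APOPT1 (0.87) and PPFIA3 (0.83), KLF5 to ACADVL, an enzyme of fatty acid oxidation (0.85), and SNRNP70 (0.82). KLF6 was most similar to ZNF436 (0.82) and TIPARP (0.79), KLF13 to ACTR1A (0.77) and BAIAP2L1 (0.70), and KLF15 to the WNT receptor FZD5 (0.76) and TBC1D10A (0.73). KLF3 (SH3RF2, 0.70, and CSNK1E, 0.70), KLF9 (FAM84A, 0.67, and LNX2, 0.67) and KLF4 (LGALS3, 0.57, and TMEM171, 0.56) had weaker nearest profiles.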

How the data were processed

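The authors trimmed the single-end reads of stranded libraries, aligned them with Tophat2 (version 2.0.13) to the bovine genome build Btau_4.6.1 and counted them per gene by strand with htseq-count (version 0.6.1). The deposited table holds raw whole-number counts, and its 5 summary lines were not used. Counts on genes were 8.66 to 13.7% of counted alignments. Columns were given their group, region and side by name. Library pairs of a condition (104) differed by more than sampling noise.

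Counts were analysed in R (version 4.3.3) with edgeR (4.0.16), limma (3.58.1) and DESeq2 (1.42.0). Genes were kept by filterByExpr with a minimum count of 10, normalized by TMM, tested by edgeR's quasi-likelihood F test and called at a Benjamini-Hochberg adjusted p under 0.05 over all genes tested. SEs were derived from the fold change and F. CPM used TMM factors over all 56 libraries, and log2 CPM a prior count of 2. Scripts were checked on simulated counts. Symbols of all 10 KLF genes matched the RefSeq gene table of assembly ARS-UCD2.0. Its coordinates were not used since the authors' build was another one.

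The KLF genes and gene lists were chosen with earlier results of these data known. Besides the KLF genes, the text names some of the listed genes called over pooled groups (values of at most 3 a list and comparison), mainly between sides of the isthmus. Calls between regions are not given for the SP genes or the epithelial and secretory markers. They are also not given for the lists of TGF-beta response, glucocorticoid and progesterone response and immediate early genes. The other tested KLF genes are named, as are the 2 genes most correlated with each KLF gene among those with mean log2 CPM above 3. The alternatives were RLE size factors, DESeq2, no filter, the animal number as a block, each animal left out and the 4 mismatched libraries left out. Animal numbers come from the column names, so sides of the same animal are pairs. Deviations of pairs from their group means correlated with a median r of 0.39 in the isthmus (above 0.1 in 11 of 14) and 0.22 in the ampulla (9 of 14) over 10616 genes.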

Additional observations from a re-analysis of the deposited data

Results flagged for a closer look

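Of 120 sets of 4 or 5 libraries (10 KLF genes in 12 conditions), 6 had a library that stood apart from the others by Dixon's criterion, and about 6 are given by chance. KLF13 was at 18.0 CPM in the contralateral isthmus of non-lactating cow D, against 12.8 to 13.5 CPM in the other cows. KLF3 was at 59.6 CPM in the ipsilateral isthmus of the same cow, against 76.6 to 82.9 CPM. KLF15 was at 12.8 CPM in the ipsilateral ampulla of heifer C, against 5.53 to 6.43 CPM. KLF2 was at 17.9 CPM in the contralateral ampulla of heifer E, against at least 7.84 CPM and at most 10 CPM. KLF5 was at 522 CPM in the contralateral isthmus of heifer B, against 434 to 457 CPM. KLF9 was at 13.5 CPM in the non-lactating ipsilateral ampulla library numbered as lactating cow B, against 21.3 to 24.3 CPM, and this is one of the 4 mismatched libraries.

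The effect of side differed between the regions for 3 genes by the test of that difference, with log2 differences (isthmus minus ampulla) of -0.38 for KLF3, -0.79 for KLF10 and -1.16 for KLF11.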

How the results depend on the processing

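No KLF gene called in the report changed direction under the alternatives run for it, whereas some uncalled differences changed sign. With the animal number as a block these were, between sides, KLF13 in the isthmus of lactating cows (-0.04 to 0.02), KLF5 in their ampulla (-0.01 to 0.05) and KLF15 in the ampulla of non-lactating cows (0.04 to -0.01). Without the 4 mismatched libraries they included KLF15 in the ampulla of lactating cows against heifers (0.03 to -0.44) and against non-lactating cows (0.21 to -0.40). Counts of KLF genes called were unchanged with RLE size factors and without the 4 mismatched libraries. Without a filter on low counts 3 in place of 4 were called between sides of the isthmus over all groups. DESeq2 gave 1 call in place of 0 between the sides of the ampulla of heifers, 2 in place of 0 over all groups of the ampulla and 1 in place of 0 between lactating cows and heifers in the isthmus. With the animal number as a block, there was 1 call in place of 0 in the ampulla of non-lactating cows (KLF6) and 1 in place of 0 in the ampulla of all groups (KLF5). The block also added KLF13 between sides of the isthmus over all groups and KLF15 between regions contralaterally, and it changed no other call. With an animal left out, the number called between sides of the isthmus was 1 to 3 in heifers, 0 to 2 in non-lactating cows and 0 in lactating cows, where each exclusion leaves fewer libraries, and 0 to 1 in the ampulla over all groups. No paired analysis was possible for the metabolic groups because each animal belongs to a single group. A depth of 1901454 counts or more per library leaves KLF15, KLF4 and KLF2 with 6 to 223 counts in a library, which limits the precision of single values for these genes.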
